A study of Mus musculus with 12 samples.

Results

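Immediate early genes are the genes a cell switches on first after a stimulus, without new protein synthesis. The 10 described here were listed by name: Fos, Fosb, Jun, Junb, Egr1, Atf3, Nr4a1, Ier2, Myc and Dusp1. All 10 were found among 33641 gene symbols, and all 10 were among the 13158 genes tested, those with at least 1 TPM (a share of a library corrected for transcript length) in at least 3 of 12 libraries. Most encode transcription factors, but Dusp1 encodes a phosphatase, so the group is called immediate early genes here. Fosb was a member of the tested genes by the narrowest margin, with 3 libraries at 1 TPM or more, against 12 for each of the other members.

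In textbook accounts, kinase cascades and calcium act on factors already bound at these promoters (serum response factor with its ternary complex partners, and CREB), and transcripts appear and decay quickly. FOS and JUN family proteins pair to form AP-1, EGR1 and NR4A1 bind their own sites, MYC acts on growth genes, and DUSP1 removes phosphate from the kinases, which closes the loop. In the heart these genes are known to respond to stretch, injury and adrenergic drive. The glucocorticoid receptor is known to act against AP-1 and to switch on Dusp1.

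RNA was measured by stranded mRNA sequencing in myocardium of 12 male C57BL/6 wild-type mice, 3 in each of 4 groups. The mice were about 10 weeks old in the protocol and 16 weeks in the sample labels, and had been operated on either to cause a myocardial infarction (MI) or as sham controls. From 2 weeks after surgery they had vehicle or prednisone, a synthetic glucocorticoid, at 1 mg/kg into the peritoneum at lights-on, once weekly for 6 weeks, and hearts were sampled 24 hours after the final dose. The groups are therefore sham vehicle, sham prednisone, MI vehicle and MI prednisone, and no group was left without injections. Every value is a single late time point, weeks after the infarct.

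Read depth is not carried by TPM, so no counting error could be attached, and the precision rests on 3 mice per group. All 8 of 8 cardiomyocyte markers were present, at a summed 22580 to 28270 TPM in MI vehicle and 31880 to 37850 TPM in the other 9 libraries, so the MI vehicle hearts were lowest. The library of MI vehicle mouse 3 stood apart. Its 8 T cell markers summed to 611 TPM against 2.93 to 31.7 TPM elsewhere, its 8 B cell markers to 5484 TPM against 15.4 to 2110 TPM elsewhere. The B cell sum of 2110 TPM was that of MI vehicle mouse 1. MI vehicle mouse 3 also had the highest adipocyte sum, 1963 TPM against 210 to 1105 TPM elsewhere. The same held for its neutrophil sum, 58.5 TPM against 6.14 to 34.9 TPM, and its cardiomyocyte sum was the lowest, 22580 TPM. The 8 fibroblast markers summed to 399 to 521 TPM in sham vehicle, 429 to 511 TPM in sham prednisone, 866 to 1089 TPM in MI vehicle and 338 to 603 TPM in MI prednisone. The 8 macrophage markers summed to 130 to 164, 140 to 186, 246 to 377 and 135 to 259 TPM in the same order. The 8 atrial markers summed to 898 to 2596, 2071 to 2799, 2880 to 4210 and 4464 to 6320 TPM in that order, highest in MI prednisone. The fibroblast and macrophage sums ran highest in MI vehicle, as several members did, but the macrophage ranges of the MI groups overlapped. The smooth muscle and pericyte sum also ran highest there, at 217 to 298 TPM, against 189 to 217 TPM in MI prednisone. The endothelial sum reached 1868 TPM in MI vehicle and 1978 TPM in MI prednisone. The cardiomyocyte sum was lowest in MI vehicle. The part of these lists in the results below was not tested. In bulk tissue, fewer cells of a type and less RNA per cell cannot be told apart.

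By mean TPM over the 12 libraries the order was Dusp1 at 37.2, Jun at 25.8, Junb at 21.8, Ier2 at 15.7, Nr4a1 at 15.02, Egr1 at 10.2, Fos at 9.45, Atf3 at 6.38, Myc at 3.63 and Fosb at 0.778 TPM. Dusp1 exceeded the TPM of 86.4% of the genes tested, and Fosb that of 1.1%. Within sham vehicle, Ier2 at 12.1 ± 2.28 TPM, Nr4a1 at 13.7 ± 3.91 TPM and Junb at 15.5 ± 4.10 TPM (mean ± SD, n = 3 mice, as throughout) lay within their spread of each other. Egr1 at 7.38 ± 3.80 TPM and Fos at 6.27 ± 2.88 TPM did as well. Dusp1 at 35.2 ± 4.73 TPM stood above Jun at 22.2 ± 2.05 TPM, and the 3 values of each did not overlap.

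Jun, the main JUN subunit of AP-1, measured 24.0, 22.6 and 19.98 TPM in the sham vehicle hearts and 20.7, 22.7 and 29.1 TPM in the sham prednisone hearts. It measured 39.6, 30.5 and 34.1 TPM in MI vehicle and 22.5, 23.4 and 20.1 TPM in MI prednisone. The MI vehicle values lay above all 9 others, and the remaining groups overlapped. Junb, a JUN relative that can restrain JUN, measured 19.8, 15.1 and 11.7 TPM in sham vehicle and 9.99, 11.7 and 18.9 TPM in sham prednisone. It measured 41.4, 36.1 and 35.9 TPM in MI vehicle, again above all 9 others, and 29.4, 21.5 and 10.2 TPM in MI prednisone, where mouse 3 was among the lowest of the study.

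Fos, the partner of JUN in AP-1, measured 8.71, 7.0002 and 3.08 TPM in sham vehicle and 2.01, 3.47 and 13.9 TPM in sham prednisone. It measured 32.9, 9.77 and 9.41 TPM in MI vehicle and 10.5, 10.2 and 2.54 TPM in MI prednisone. One MI vehicle heart was far above its group, and the other 2 lay below the highest sham prednisone heart. Fosb, a close relative of Fos, was low throughout, at 0.881, 0.398 and 0.212 TPM in sham vehicle and 0.468, 0.459 and 1.08 TPM in sham prednisone. It measured 2.68, 0.806 and 0.529 TPM in MI vehicle, highest in the same mouse as Fos, and 0.598, 1.00 and 0.236 TPM in MI prednisone.

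Atf3, a stress-induced factor of the same bZIP class, had a different order of groups. It measured 4.47, 4.11 and 4.04 TPM in sham vehicle, a narrow range, and 3.86, 8.45 and 5.72 TPM in sham prednisone. It measured 6.68, 4.89 and 6.67 TPM in MI vehicle and 7.88, 13.7 and 6.03 TPM in MI prednisone. Its highest group mean was thus MI prednisone at 9.21 ± 4.02 TPM, whereas the other 9 members had theirs in MI vehicle.

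Egr1, a zinc finger factor, measured 10.5, 8.55 and 3.13 TPM in sham vehicle and 4.07, 11.8 and 10.4 TPM in sham prednisone. It measured 19.3, 8.11 and 14.1 TPM in MI vehicle and 17.5, 9.54 and 5.14 TPM in MI prednisone, and each group overlapped each other group. Nr4a1, an orphan nuclear receptor, measured 16.5, 15.4 and 9.23 TPM in sham vehicle and 9.29, 16.8 and 13.1 TPM in sham prednisone. It measured 21, 13.9 and 25.4 TPM in MI vehicle and 12.8, 19.1 and 7.68 TPM in MI prednisone, with overlap between all groups. Ier2, a less studied nuclear immediate early protein, measured 14.1, 12.6 and 9.62 TPM in sham vehicle and 8.497, 10.96 and 16.5 TPM in sham prednisone. It measured 23.4, 15.6 and 25.2 TPM in MI vehicle, above sham vehicle, and 24.8, 17.1 and 10.6 TPM in MI prednisone.

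Myc, the growth regulator, measured 2.74, 3.00 and 1.76 TPM in sham vehicle and 2.04, 1.57 and 1.59 TPM in sham prednisone. It measured 3.61, 4.92 and 14.02 TPM in MI vehicle and 2.83, 3.01 and 2.47 TPM in MI prednisone. All 3 MI vehicle hearts lay above the other 9, but the mean of 7.51 ± 5.67 TPM was carried by mouse 3. That library stood apart in its lymphocyte, adipocyte, neutrophil and cardiomyocyte markers. Dusp1, the phosphatase, measured 38.8, 37.1 and 29.9 TPM in sham vehicle and 26.6, 30.6 and 40.3 TPM in sham prednisone. It measured 48.9, 35.7 and 45.5 TPM in MI vehicle and 44.9, 39.4 and 29.4 TPM in MI prednisone, so that all 4 groups overlapped.

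**Figure D1:**
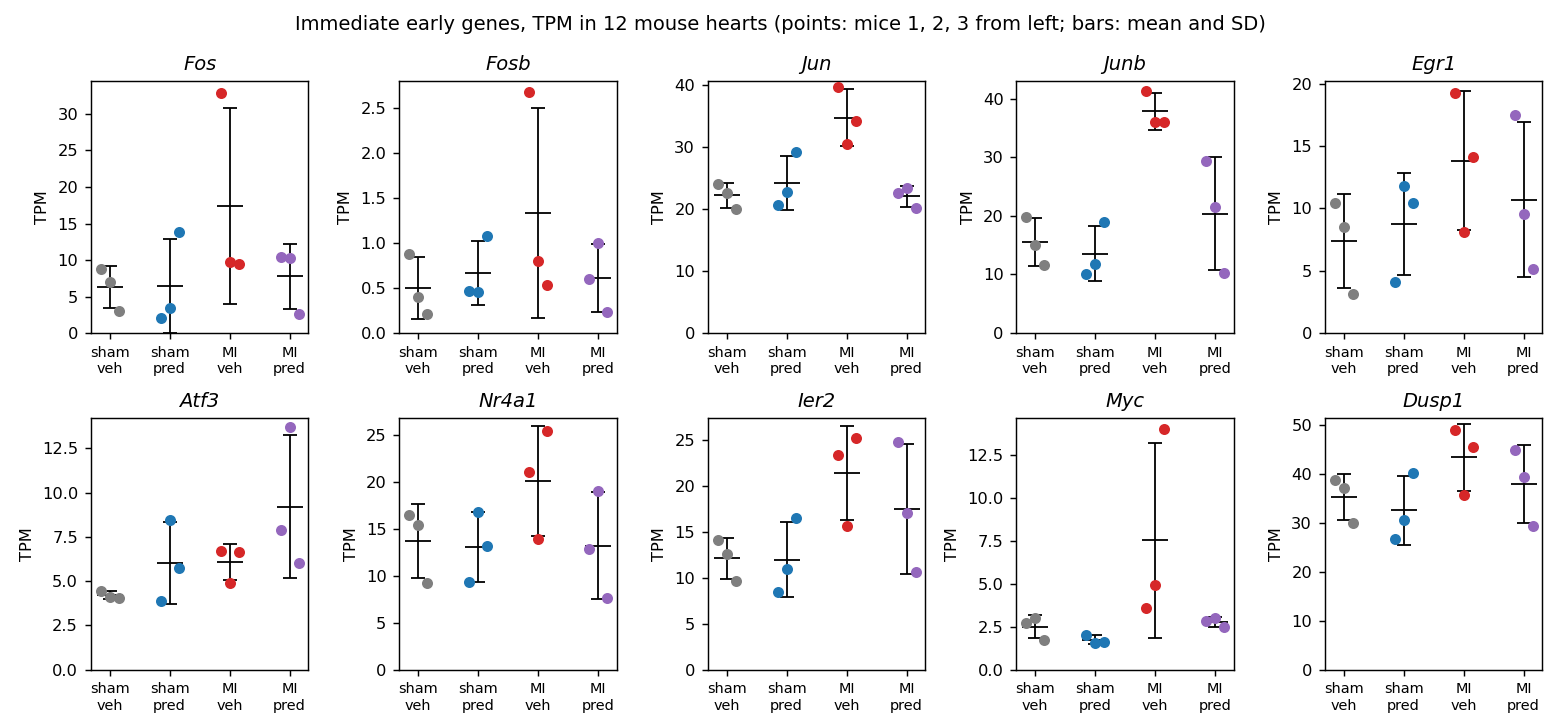
TPM of the 10 genes in 12 hearts, 1 panel per gene with its own axis from 0; points are mice 1 to 3 from left in each group, and black bars the mean and SD. In MI vehicle, Jun (30.5 to 39.6 TPM), Junb (35.9 to 41.4 TPM) and Myc (3.61 to 14.02 TPM) lay above every library of the other groups. The MI vehicle means of Fos and Myc were each carried by 1 mouse.

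Mice within a group differed in a way the members shared. In sham vehicle, mouse 1 had the highest value for 9 members and mouse 3 the lowest for all 10. In MI prednisone, mouse 3 was lowest for all 10, with a median deviation of the members from their group means of -0.53 on the log2(TPM + 1) scale, against -0.05 over all genes tested. In sham prednisone, mouse 1 was lowest for 8 members and mouse 3 highest for 6. In MI vehicle, mouse 1 was highest for 7 members (Fos, Fosb, Jun, Junb, Egr1, Atf3 and Dusp1) and mouse 3 for Nr4a1, Ier2 and Myc. The members are not independent of each other in this respect. Erythroid markers, summed over the 7 found, ran 96730, 74740 and 26710 TPM in sham vehicle mice 1 to 3. They ran 78690, 50350 and 43000 TPM in sham prednisone, the reverse of most members there, 96410, 37530 and 64400 TPM in MI vehicle, and 98120, 47720 and 47630 TPM in MI prednisone. Fibroblast and macrophage sums were lowest in mouse 3 of sham vehicle (399 and 130 TPM) and of MI prednisone (338 and 135 TPM). In sham prednisone they were highest in mouse 3 (511 and 186 TPM) and lowest in mouse 2 (429 and 140 TPM). In MI vehicle they were lowest in mouse 1 (866 and 246 TPM), the reverse of most members there. The part of these 3 lists in the differences between mice was not tested.

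**Figure D2:**
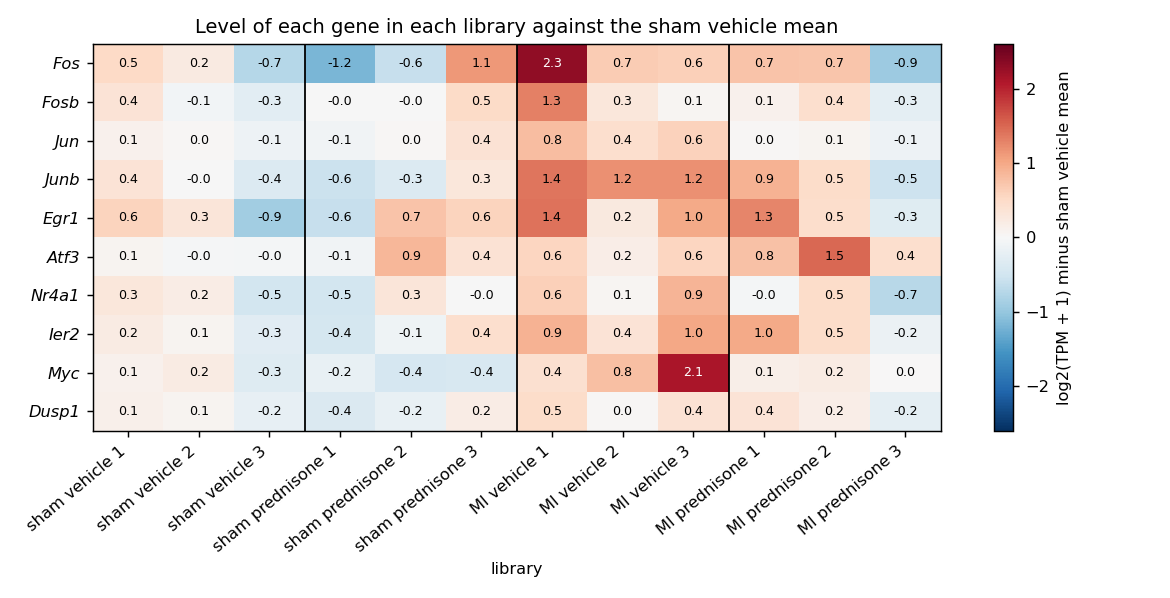
Difference of each gene's log2(TPM + 1) in each of 12 libraries (columns) from its sham vehicle mean, red above and blue below, with vertical lines between groups. All 10 genes exceeded the sham vehicle mean in every MI vehicle library, Junb by 1.19 to 1.39 and Dusp1 by 0.026 to 0.469. Sham vehicle mouse 3 and MI prednisone mouse 3 were the lowest of their groups for all 10 genes.

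The spread between mice was wide for most members. The pooled within-group SD of log2(TPM + 1) was 0.97 for Fos, larger than in 97.1% of the genes tested, and 0.73 for Egr1, larger than in 94.9%. Myc at 0.48, Junb at 0.47, Nr4a1 at 0.47, Fosb at 0.44, Ier2 at 0.42 and Atf3 at 0.38 also exceeded the median gene at 0.24. Dusp1 at 0.26 was near that median, and Jun at 0.17 lay below it, larger than in 25.6% of genes. A change of a given size was therefore easier to detect in Jun than in Fos: the standard error of a comparison of 2 groups was 0.15 for Jun and 0.68 for Fos on the log2 scale.

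In vehicle-treated hearts, MI against sham asks how these genes differ weeks after an infarct. Jun and Junb rose, and no member fell. Jun was 1.56 times as high in mean TPM, with a log2(TPM + 1) change of 0.62 (SE 0.15, adjusted p = 0.0225 by limma with Benjamini-Hochberg adjustment over all genes tested), and Junb 2.43 times, with a change of 1.26 (SE 0.34, adjusted p = 0.0337). Called genes are those with an adjusted p under 0.05, here 2 of 10 members, beside 16.0% of all genes tested, so the members were called about as often as genes at large. Of all genes, 1981 were called higher and 119 lower. That background itself depended on single mice: 120 genes were called without sham vehicle mouse 3 and 168 without mouse 1, 966 without MI vehicle mouse 3, and 5631 without MI vehicle mouse 1.

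The other members did not pass the test in this comparison. Myc had a change of 1.10 (SE 0.35, adjusted p = 0.0529) and Ier2 of 0.76 (SE 0.30, adjusted p = 0.0898). Fos had a change of 1.19, with a 95% interval from -0.29 to 2.68, and stood at 0.63 without MI vehicle mouse 1. The intervals of the remaining members also held 0, from -0.25 to 2.00 for Egr1, -0.18 to 1.29 for Fosb, -0.22 to 1.25 for Nr4a1, -0.18 to 1.05 for Atf3 and -0.14 to 0.72 for Dusp1. The values of the 2 groups did not overlap for 6 members (Jun, Junb, Fos, Atf3, Ier2 and Myc, all higher in MI), beside 45.0% of all genes.

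The level to which these changes are compared matters, because most genes moved the same way. The median of all genes tested was 0.39 higher in MI vehicle than in sham vehicle on the log2 scale, and 86.7% of genes had a higher value, whereas 10 of 10 members did, with a median of 0.69. Relative to that shift, 9 of 10 members lay above the median gene. The shift itself rested in part on 1 library: without MI vehicle mouse 3 it was 0.19. After median-ratio rescaling, which removes the shift, the changes were 0.19 for Jun (adjusted p = 0.535), 0.83 for Junb (adjusted p = 0.158), 0.81 for Fos and 0.73 for Myc, Dusp1 turned to -0.14, and no member was called. MI vehicle mouse 3 had the largest size factor, 1.65, against 0.871 to 1.14 elsewhere.

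Single libraries also decided these calls. Jun lost its call without sham vehicle mouse 1 (adjusted p = 0.0679) or mouse 3 (adjusted p = 0.103), and kept it without MI vehicle mouse 3. Junb lost its call without any of the 3 sham vehicle mice (adjusted p 0.0718, 0.0679 and 0.136 for mice 1 to 3), without sham prednisone mouse 2 (0.0513), or without MI vehicle mouse 2 (0.0529) or mouse 3 (0.0684), while its change stayed between 1.08 and 1.44. Myc gained a call without MI vehicle mouse 1, at 1.45 (adjusted p = 0.0113), and stood at 0.60 (adjusted p = 0.0723) without MI vehicle mouse 3. In a fit with the replicate number as a block, Junb missed the threshold (adjusted p = 0.0557), and Jun kept its call.

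Prednisone against vehicle in sham hearts asks how the drug-treated hearts differ without an infarct. No member was called, and none had an unadjusted p under 0.05. All genes gave 15 calls (0.114%), and the unadjusted p was under 0.05 for 469 of them. The values of the groups overlapped for all 10 members. The changes ran from -0.34 for Myc to 0.38 for Atf3. The 95% interval was -0.21 to 0.43 for Jun and -0.55 to 0.30 for Dusp1, and -1.70 to 1.26 for Fos. The interval for Fos was the widest of the 10.

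Within MI hearts, prednisone against vehicle asks how the treated infarcted hearts differ. Jun, Junb and Myc fell. Mean TPM with prednisone was 0.634 of the vehicle value for Jun, 0.539 for Junb and 0.368 for Myc. The log2(TPM + 1) changes were -0.63 for Jun (SE 0.15, adjusted p = 0.00754, limma), -0.97 for Junb (SE 0.34, adjusted p = 0.0413) and -0.98 for Myc (SE 0.35, adjusted p = 0.0463). The 3 called of 10 stand beside 37.4% of all genes, and the same 3 were the members whose groups did not overlap, beside 46.2% of all genes. The MI vehicle mice are shared with the preceding MI comparison, so the 2 sets of changes are not independent.

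The remaining 7 members were not called here. Fos stood at -1.02, with a 95% interval from -2.50 to 0.47, and at -0.46 without MI vehicle mouse 1. Nr4a1 stood at -0.61 (-1.35 to 0.12), Fosb at -0.45 (-1.19 to 0.28), Egr1 at -0.41 (-1.53 to 0.71), Ier2 at -0.32 (-0.99 to 0.35) and Dusp1 at -0.20 (-0.63 to 0.23). Atf3 alone had a higher value with prednisone, 0.47 (-0.15 to 1.09). The members' median of -0.53 stands beside -0.41 over all genes, of which 17.9% had a higher value. Without MI vehicle mouse 3 the median of all genes was -0.22.

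Relative to that shift, the picture of single members differed. After median-ratio rescaling Jun stood at -0.19 (adjusted p = 0.475), Junb at -0.53 (adjusted p = 0.282), Myc at -0.59 (adjusted p = 0.086) and Fos at -0.62, while Egr1, Ier2 and Dusp1 turned to 0.01, 0.11 and 0.25. Atf3 was then called higher, at 0.86 (adjusted p = 0.0398), as 1 of 10 members beside 28.8% of all genes under that scaling. With each library centred on its median deviation instead, an alternative chosen after seeing the data, Atf3 stood at 0.86 (adjusted p = 0.042), and with a correction for transcript length at 0.83 (adjusted p = 0.0626).

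Jun kept its call in MI hearts when any single library was left out. Junb lost it in 7 of those 12 fits, without sham vehicle mouse 2 (adjusted p = 0.0557), sham prednisone mouse 2 (0.0555), MI vehicle mouse 1 (0.0782), 2 (0.0642) or 3 (0.0718), or MI prednisone mouse 2 (0.0634) or 3 (0.136). Without MI prednisone mouse 3, the heart lowest for all members, the change of Junb was -0.56. Myc lost its call in 10 of the 12, all but those without MI vehicle mouse 1 or 2, with adjusted p from 0.0538 to 0.112, and without MI vehicle mouse 3 its change was -0.47 (adjusted p = 0.0721). With the replicate number as a block, Junb (adjusted p = 0.0574) and Myc (adjusted p = 0.0741) missed the threshold.

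**Figure D3:**
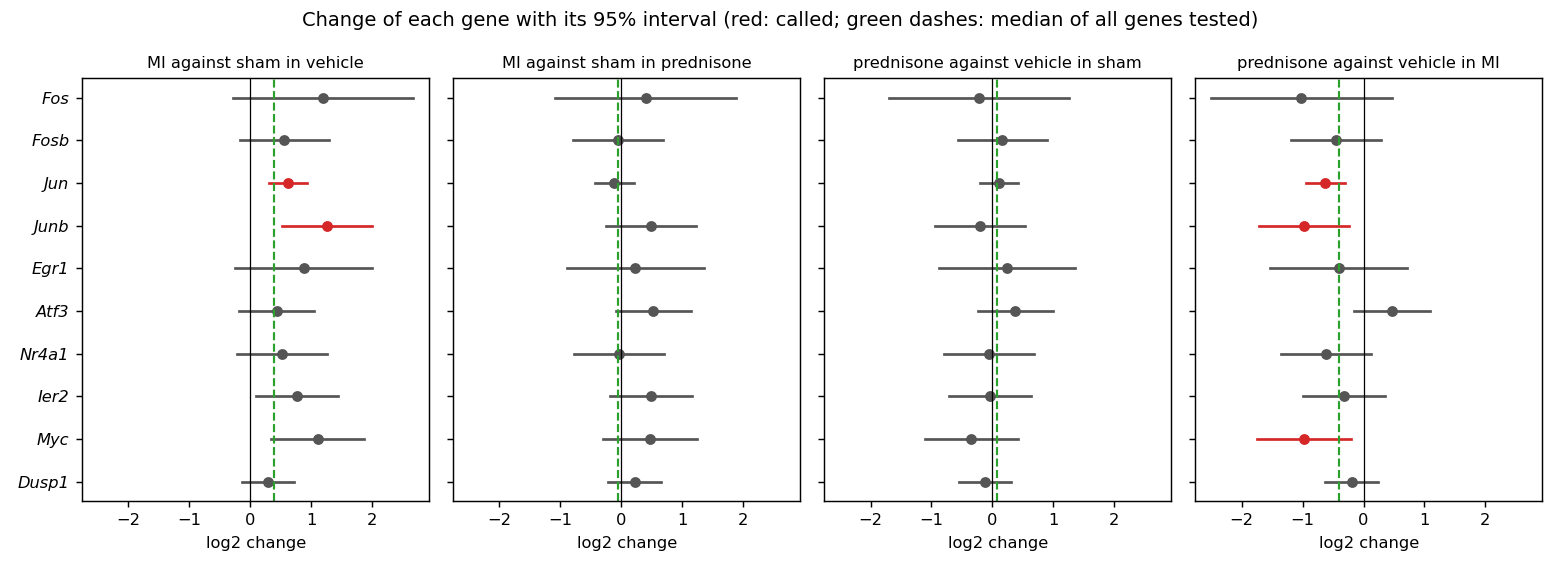
Log2(TPM + 1) change of each gene (points) with its 95% interval (lines) in 4 comparisons, red where called, with a green dashed line at the median of all genes tested. The called genes are Jun and Junb in MI against sham with vehicle, and Jun, Junb and Myc for prednisone in MI; the dashed lines at 0.39 and -0.41 show how far the median gene had moved in the same 2 comparisons.

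**Figure D4:**
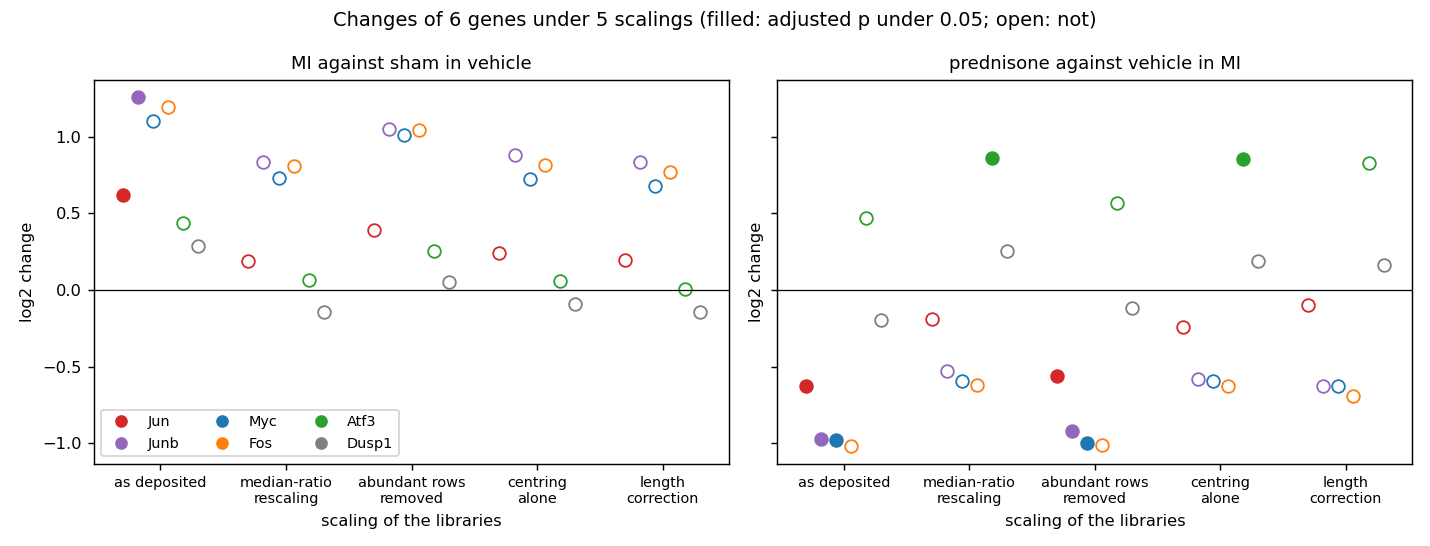
Log2 change of 6 members (colours) in 2 comparisons under 5 scalings of the libraries, filled where the adjusted p was under 0.05. Jun moved from 0.62 to 0.19 and from -0.63 to -0.19 on median-ratio rescaling, Junb kept its direction at 0.83 and -0.53 without a call, and Dusp1 changed sign in both comparisons.

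In prednisone-treated hearts, MI against sham gave no call among the members and no unadjusted p under 0.05, beside 16.8% of all genes called, 359 higher and 1854 lower. The values were 0.53 for Atf3, 0.49 for Junb, 0.48 for Ier2, 0.47 for Myc, 0.40 for Fos, 0.23 for Egr1 and 0.22 for Dusp1. Nr4a1 stood at -0.03, Fosb at -0.06 and Jun at -0.12, and these 3 turned to values above 0 when the libraries were corrected for transcript length. Myc was the only member without overlap between the groups, beside 45.2% of all genes. Junb gained a call without MI prednisone mouse 3, at 0.90 (adjusted p = 0.0419). The members' median was 0.31, beside -0.06 over all genes.

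The difference between the prednisone effect in MI and that in sham hearts was tested as an interaction. Jun passed, at -0.74 (SE 0.20, adjusted p = 0.0297, limma), as 1 of 10 members beside 21.3% of all genes. Junb stood at -0.77 and Fos at -0.80, with 95% intervals from -1.81 to 0.27 and -2.90 to 1.30, and Atf3 at 0.09 (-0.78 to 0.96). The median of all genes was -0.48, or -0.29 without MI vehicle mouse 3, and after rescaling Jun stood at -0.21 (adjusted p = 0.642). Jun also missed the threshold without sham vehicle mouse 1 (adjusted p = 0.0551) or 3 (0.0802), sham prednisone mouse 2 (0.0539) or 3 (0.0687), or MI prednisone mouse 1 (0.0597) or 3 (0.0517), and with the replicate block (0.0506). A difference in response between sham and MI hearts was not shown for any other member.

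Related genes were read from lists, whose counts stand beside the shares of all genes called (16.0% for MI with vehicle, 37.4% for prednisone in MI). Of 17 other AP-1 and ATF family genes tested, 7 rose in MI vehicle and none fell, with a median of 0.59. Maff rose by 1.08, Maf by 1.03 and Mafk by 0.87, all bZIP factors. Of 6 EGR and NR4A relatives and EGR corepressors, 4 rose, among them Egr2 by 1.14, Egr3 by 0.88 and the corepressor gene Nab2 by 0.83. Egr2 and Egr3 were low, with sham vehicle means under the 1 TPM of the filter. Egr2 went from 0.367 ± 0.157 to 2.11 ± 1.10 TPM, and Egr3 from 0.418 ± 0.108 to 1.75 ± 1.17 TPM. Of 40 other immediate early and rapid response genes, 20 rose and none fell, with a median of 0.69. Ctgf, a matricellular growth factor, rose by 2.11, from 32.0 ± 1.18 to 151.8 ± 64.3 TPM. Socs3, a cytokine signalling inhibitor, rose by 1.37.

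Among 15 genes listed as AP-1 targets, 10 rose in MI vehicle, with a median of 1.03. Timp1, an inhibitor of matrix proteases, rose by 2.80, from 2.61 ± 0.611 to 30.6 ± 27.5 TPM. Spp1, which encodes osteopontin, rose by 2.42, from 0.689 ± 0.263 to 9.15 ± 6.16 TPM, and Mmp3, a matrix protease, by 1.46. The fibroblast marker sum in MI vehicle, 866 to 1089 TPM, also lay above both sham groups, and its part in these changes was not tested. Of 12 other dual specificity phosphatases, 3 rose, Dusp4 by 1.201, Dusp6 by 0.76 and Dusp3 by 0.53. No MYC network partner of 10 was called, 3 of 16 MYC targets rose (Eif4a1, Ccnd2 and Odc1), and 4 of 26 upstream SRF, TCF, CREB and MAP kinase genes rose, among them Elk3 by 0.85. Among 12 glucocorticoid receptor targets, 3 rose, Cdkn1a by 1.45, Lcn2 by 1.42 and Mt2, which is also on the AP-1 target list, by 1.30.

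These list counts moved with scaling and with 1 library. After rescaling, the counts called higher in MI vehicle were 1 of 17 AP-1 and ATF genes, 0 of 6 EGR and NR4A genes, 4 of 40 rapid response genes and 6 of 15 AP-1 targets, beside 7.44% of all genes called in either direction under that scaling. They were 1 of 12 phosphatases (with 1 lower), 0 of 10 MYC partners (with 1 lower), 0 of 16 MYC targets, 1 of 26 upstream genes (with 1 lower) and 3 of 12 receptor targets. Without MI vehicle mouse 3 the first 4 counts were 4, 0, 12 and 7, and the others 1, 0, 3, 2 and 3, beside 7.34% of all genes. The AP-1 targets kept a median of 0.70 after rescaling, against 0.02 over all genes, and the rapid response genes one of 0.37. The EGR and NR4A genes, without a call, had a median of 0.38, the MYC targets 0.21 and the AP-1 and ATF genes 0.20. The other medians were closer to that of all genes: 0.063 for receptor targets, 0.045 for phosphatases, -0.045 for upstream genes and -0.11 for MYC partners.

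With prednisone in MI hearts, 20 of the 40 rapid response genes fell and none rose, among them Csrnp1 at -1.91 and Bhlhe40 at -1.39. Of the AP-1 and ATF genes, 8 fell and 1 rose: Maf stood at -1.36, Atf1 at -1.01, Atf2 at -0.998 and Atf7 at 0.61. Of the AP-1 targets, 9 fell and 1 rose, with Spp1 at -1.62, the metallothionein gene Mt2 at -1.53, the matrix protease gene Mmp14 at -1.21 and the angiogenic factor gene Vegfa at 0.59. Of the EGR and NR4A genes 3 fell (Nab1, Nab2 and Nr4a3), of the phosphatases 4, of the MYC partners 4 with Mlxipl alone higher at 0.89, and of the MYC targets 3. Of the upstream genes 16 of 26 fell, among them Rps6ka3 at -1.30, Creb1 at -1.26 and Ep300 at -1.18. Of the glucocorticoid receptor targets 7 of 12 fell, Klf9 by 1.82 and the clock gene Per1 by 1.65 on the log2 scale, and none rose.

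After rescaling, the counts with prednisone in MI were 2 higher and 9 lower of the rapid response genes, 3 and 4 of the AP-1 and ATF genes, 1 and 5 of the AP-1 targets, 1 and 7 of the upstream genes, and 0 and 4 of the receptor targets, beside the 28.8% of all genes. They were 1 and 0 of the phosphatases, 1 and 1 of the MYC partners, 0 and 1 of the MYC targets, and 0 and 2 of the EGR and NR4A genes. Without MI vehicle mouse 3 the counts lower were 14, 6, 7, 14 and 5 in the first order and 2, 4, 2 and 2 in the second, beside 31.6% of all genes. In sham hearts prednisone gave no call in any of the 9 lists. In prednisone-treated hearts, MI against sham gave 3 higher and 1 lower of the rapid response genes, with Ctgf at 1.24, Gadd45g at 1.03, Rcan1 at 0.80 and Mcl1 at -0.52. It also gave 7 lower of the 26 upstream genes, led by Ep300 at -1.04 and Mapk8 at -1.0, beside 16.8% of all genes. The AP-1 and ATF genes gave 2 higher and 2 lower, the receptor targets 2 lower, and each remaining list 1 lower. After rescaling the rapid response genes gave 6 higher and 1 lower and the upstream genes 10 lower, beside 3417 of 13158 genes. The AP-1 and ATF genes then gave 3 and 2, the AP-1 targets 3 and 1, the MYC targets 3 and 0, and the receptor targets 0 and 1. In the interaction, 12 upstream genes, 7 AP-1 and ATF genes, 5 rapid response genes and 4 AP-1 targets were called, all lower, beside 21.3% of all genes. After rescaling these counts were 0 higher and 2 lower, 1 and 2, 1 and 2, and 0 and 1, beside 10.1% of all genes.

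The 10 members were standardized and averaged into 1 profile over the 12 libraries, which ran from -1.15 in sham prednisone mouse 1 to 1.40 in MI vehicle mouse 1. Among 8108 other genes averaging 5 TPM or more, those most like it by Pearson r were Atp6v0e2 at 0.90, Cmtm3 at 0.90, Nnmt at 0.89, Dpt at 0.89 and Preb at 0.87. Without MI vehicle mouse 3 these were 0.89, 0.87, 0.88, 0.86 and 0.88. The libraries share the group differences, the library scaling and the tissue, so these are descriptions of these 12 libraries. Dpt, a fibroblast matrix gene and one of the fibroblast markers used here, measured 69.5 ± 9.77, 72.7 ± 5.92, 112.0 ± 10.7 and 80.4 ± 25.1 TPM in sham vehicle, sham prednisone, MI vehicle and MI prednisone.

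The deposited values are per transcript, and 32 transcript rows make up the 10 members. Jun, Nr4a1 and Ier2 had 1 row each. For Atf3, the coding transcript ENSMUST00000027941.13 held 91.5% of the gene's TPM. A 517-base transcript without a coding sequence, ENSMUST00000131854.1, held 20.3% of Atf3 in sham vehicle and 20.1% in sham prednisone, at 0.00, 1.198 and 1.36 TPM and 0.318, 1.40 and 1.91 TPM. It rounded to 0.00 TPM in all 6 MI libraries, but only 5 libraries of the study held an exact 0. Tested on its coding transcript, Atf3 had a change of 0.75 (adjusted p = 0.156) in MI vehicle, against 0.43 for the gene.

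For Fos, the coding transcript held 70.3% of the gene. The 631-base ENSMUST00000134311.1, also without a coding sequence, stood at 0.628, 1.42 and 0.838 TPM in sham vehicle and 3.18, 1.196 and 0.586 TPM in MI vehicle, and was listed at 0 in all 6 prednisone libraries. These splits are the authors' estimates for overlapping transcripts of low value, a 0 can be a failed estimate, and the 2 patterns were singled out after their values were seen. Myc was spread over 8 rows, of which the most abundant, ENSMUST00000160009.1, held 22.7% of the gene. That row held 13.3% of Myc in MI vehicle and 60.0% in MI prednisone, so the change of this transcript with prednisone was 0.52 (adjusted p = 0.318), against -0.98 for the gene. The fall of Myc thus holds for the sum of its rows and not for this row.

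The genes lie on separate stretches of the GRCm38 genome (GENCODE M21): Atf3 at chr1:191170296-191218039, Jun at chr4:95049034-95052222, Fosb at chr7:19302696-19310051, Ier2 at chr8:84661331-84662852 and Junb at chr8:84974484-84978718. Fos lies at chr12:85473890-85477273, Myc at chr15:61985391-61990374, Nr4a1 at chr15:101254269-101274795 and Dusp1 at chr17:26505590-26562128. RefSeq promoter windows of GRCm38.p6, from 250 bases before to 50 bases after the start, were found for 7 members, and none for Egr1, Ier2 and Myc. The windows of Fos, Jun, Junb and Dusp1 are shown 5′ to 3′ on the strand of the gene, since Jun and Junb carry the called changes, Fos is their partner and Dusp1 had the smallest change between MI and sham with vehicle. Capitals mark the letters TGACG (part of the site bound by CREB and ATF factors) on either strand, the 8-letter form TGANNTCA, and the MEF2 consensus.
Fos: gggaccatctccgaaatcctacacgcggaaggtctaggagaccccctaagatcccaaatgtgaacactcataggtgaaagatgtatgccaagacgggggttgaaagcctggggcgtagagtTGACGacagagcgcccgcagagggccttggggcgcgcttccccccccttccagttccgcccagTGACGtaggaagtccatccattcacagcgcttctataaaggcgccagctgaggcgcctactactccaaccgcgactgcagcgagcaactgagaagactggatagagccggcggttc
Jun: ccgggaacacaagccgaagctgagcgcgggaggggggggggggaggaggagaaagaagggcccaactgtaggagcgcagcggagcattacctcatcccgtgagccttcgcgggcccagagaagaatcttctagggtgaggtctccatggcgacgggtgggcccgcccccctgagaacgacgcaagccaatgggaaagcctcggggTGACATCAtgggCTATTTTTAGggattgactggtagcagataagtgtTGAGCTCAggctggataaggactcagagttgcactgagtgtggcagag
Junb: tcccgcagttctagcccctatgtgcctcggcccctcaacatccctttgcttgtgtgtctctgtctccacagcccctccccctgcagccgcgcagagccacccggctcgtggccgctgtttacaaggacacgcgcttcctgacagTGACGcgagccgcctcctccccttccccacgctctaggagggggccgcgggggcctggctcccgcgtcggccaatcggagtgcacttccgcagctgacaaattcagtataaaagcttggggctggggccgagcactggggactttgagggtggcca
Dusp1: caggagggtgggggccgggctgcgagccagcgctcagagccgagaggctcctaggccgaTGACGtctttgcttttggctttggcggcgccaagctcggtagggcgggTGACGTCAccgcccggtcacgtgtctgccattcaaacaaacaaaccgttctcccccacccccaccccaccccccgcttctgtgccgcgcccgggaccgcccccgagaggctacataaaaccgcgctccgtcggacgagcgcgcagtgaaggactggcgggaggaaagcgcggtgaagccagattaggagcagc

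These windows lie at chr12:85473640-85473939 (plus strand) for Fos, chr4:95052173-95052472 (minus) for Jun, chr8:84978699-84978998 (minus) for Junb and chr17:26508423-26508722 (minus) for Dusp1. The Dusp1 window, placed on the RefSeq start, lies inside the GENCODE interval given above, whose 5′ end on the minus strand is at 26562128. Fos held TGACG at 129 and 66 bases before its start, and Junb at 106. Jun held no TGACG in this window, but the 8-letter forms TGACATCA at 45 bases before the start and TGAGCTCA from 3 bases after it, and a MEF2 consensus at 33 bases before it. Dusp1 held the full TGACGTCA at 143 bases before the start, which itself contains TGACG on both strands and is also a TGANNTCA, and a further TGACG at 191.

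TGACG was found on either strand in 6 of the 7 windows (all but Jun) and in 20.8% of 32851 RefSeq windows of the same length. TGANNTCA was in 2 of 7 (Jun and Dusp1) and in 14.1% of all, TGACGTCA in 1 of 7 and 1.79%, and the MEF2 consensus in 2 of 7 (Jun and Atf3) and 3.19%. The 7-letter TGANTCA was in none of the 7 and in 7.81% of all. The CArG box, bound by serum response factor, and a glucocorticoid response element were also in none, against 1.63% and 0.475% of all. A match is a run of letters in a 300-base window, and sites farther from the start were not searched.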

How the data were processed

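RNA-seq of 12 hearts was used as deposited. The authors' table gives TPM for 105129 transcript rows, each library summing to 1000000. Trimmomatic, HISAT2, kallisto and the mm10 build are named in the submitters' processing notes, without versions or roles. TPM are shares, so abundant RNAs lower all others, and depth is unknown.

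Rows were summed to 33641 symbols. The 13158 genes reaching 1 TPM in 3 or more libraries were fitted on log2(TPM + 1) with limma 3.58.1 in R 4.3.3 (4 group means, trend), adjusted by Benjamini-Hochberg, and called at an adjusted p under 0.05. This scale understates changes of low genes. Groups come from titles, and labels describe separate mice. An exact permutation test of 3 against 3 cannot go below p = 0.1 and was not used. The fit was tested on simulated data.

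The members and lists were chosen with earlier results of these data known. Always named are the 10 members. Of each list at most the 3 largest called rises and falls are named, and of similar genes the 5 with the highest r; exceptions are said in the text, and 1 list gene is not reported here. Alternatives were rescaling, removal of abundant mitochondrial and globin rows, filters, pseudocount 0.1, no trend, single transcripts, the replicate block, fewer groups, each library left out, and a length correction (loess, span 0.5, 11903 genes).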

Additional observations from a re-analysis of the deposited data

Results flagged for a closer look

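The prednisone effect on Jun differed between MI and sham hearts by -0.74 on the log2(TPM + 1) scale (SE 0.20, adjusted p = 0.0297, limma interaction term). Jun had a change of -0.63 with prednisone in MI hearts and of 0.11 in sham hearts, and all 3 MI prednisone hearts lay below all 3 MI vehicle hearts. The median of all genes tested differed by -0.48 in the same term, and after median-ratio rescaling the value for Jun was -0.21 (adjusted p = 0.642). Leaving out 1 library ended the call in 6 of 12 fits, with values from -0.84 to -0.60.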

How the results depend on the processing

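Depth is unknown, so precision rests on 3 mice per group, and the members' calls depend on how libraries are scaled. For the count of all genes called in MI against sham with vehicle (2100), rescaling gave 979 (490 higher, 489 lower), no filter 1068, single transcripts 789, the replicate block 1056, only the 2 groups compared 2, the length correction 631, that with the block 70 and centring 777. In MI against sham with prednisone (2213) rescaling gave 3417, removal of abundant rows 3648, single transcripts 6204 and length with block 940. For prednisone in sham (15), the block gave 7 and length with block 6. For prednisone in MI (4917), single transcripts gave 9169, 2 groups 808, length 1958, length with block 1365 and centring 3245, and rescaling split the calls into 1917 higher and 1870 lower. For the interaction (2797), rescaling gave 1323 (674 higher, 649 lower), single transcripts 5185, length 243, length with block 110 and centring 1044. Leaving out 1 library gave 120 to 5631, 1027 to 3971, 4 to 18, 3245 to 6274 and 1111 to 4520 calls in these 5 comparisons; a lone pair left in a group was assumed to vary like the other groups.

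Members called in MI vehicle (2) were 0 after rescaling, removal of abundant rows, single transcripts, 2 groups, length, length with block and centring, and 1 (Jun) with no filter or the replicate block. In MI with prednisone (0), 1 (Myc) was called with only 2 groups. For prednisone in MI (3), 1 was called after rescaling or centring (Atf3) and with no filter or the block (Jun), and 0 with 2 groups, length or length with block. In the interaction (1), 0 were called after rescaling, removal of abundant rows, the block, length, length with block and centring. Leaving out 1 library gave 0 to 3, 0 to 1, 1 to 2 and 0 to 1 in these 4, and 0 for prednisone in sham under every alternative run. The cause of these changes was not tested. The replicate numbers belong to different mice, so the block is not a pairing. The deviations of same-numbered libraries from their group means had r of -0.58 to 0.14 over genes.

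Directions of single members turned as follows, with the length value the same with the block. In MI vehicle, Dusp1 stood at -0.14 after rescaling, -0.14 with length and -0.09 centred. In MI with prednisone, Fosb stood at 0.17 with length and 0.027 centred, Jun at 0.071 with length, and Nr4a1 at 0.064 rescaled, 0.054 with length and 0.049 centred. In sham, Fos stood at 0.15 by its main transcript. For prednisone in MI, Fosb stood at 0.11 with length, Egr1 at 0.01 rescaled and 0.12 with length, Ier2 at 0.11 rescaled and 0.068 centred, Myc at 0.52 by transcript, and Dusp1 at 0.25 rescaled, 0.17 with length and 0.19 centred. In the interaction, Fosb stood at 0.039 with length, Ier2 at 0.24 rescaled, 0.042 with length and 0.18 centred, Myc at 0.70 by transcript, and Dusp1 at 0.46 rescaled, 0.083 with abundant rows removed, 0.34 with length and 0.39 centred. Leaving out 1 library, signs turned in MI with prednisone for Fos (-0.083 to 1.07), Fosb (-0.23 to 0.12), Jun (-0.22 to 0.018), Egr1 (-0.18 to 0.63) and Nr4a1 (-0.32 to 0.28). They turned in sham for Fos (-0.90 to 0.26), Fosb (-0.009 to 0.34), Jun (-0.028 to 0.21), Egr1 (-0.21 to 0.65), Nr4a1 (-0.30 to 0.15), Ier2 (-0.28 to 0.16) and Dusp1 (-0.29 to 0.004), and in the interaction for Atf3 (-0.21 to 0.33), Ier2 (-0.55 to 0.02) and Dusp1 (-0.20 to 0.10). None of these turns concerned a called value except that of Myc by transcript. Of the other values of single members, 539 left-out-library values and 492 others kept direction and side of the threshold. Fosb and Myc have no value at a mean of at least 5 TPM, and Fosb none by its main transcript.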
